A study of Homo sapiens with 7 samples.

Results

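The regions described here are covered, at least in part, by peaks of more than 2000 bp in 2 HOXB13-K13ac libraries. The libraries were made by chromatin immunoprecipitation and sequencing (ChIP-seq). They were chosen as peaks of the replicate 2 list against input that are wider than 2000 bp and share at least 1 bp with a replicate 1 peak that is also wider than 2000 bp. Of the 45216 replicate 2 peaks, 2542 (5.62%) passed this width, and of the 41303 replicate 1 peaks 1183 (2.86%) did. The rule left 888 regions, 1.96% of the replicate 2 list, which met 898 wide peaks of replicate 1. They cover 2.84 Mb of the 38.1 Mb of that list, in which 62.9% of peaks share sequence with a replicate 1 peak of any width. Width and the values tied to it in these 2 lists chose the regions, so they are given as a description with no test. All positions are on hg19, counted from 1.

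All 7 libraries come from C4-2B, an established prostate cancer cell line grown in charcoal-stripped serum without further treatment. The groups are 3 precipitations with an antibody to HOXB13 acetylated at lysine 13, 2 IgG precipitations and 2 inputs. Per the labels, chromatin was sheared to 1 kb fragments and library fragments of about 250 bp were taken from a gel. Replicate 1 belongs to library series 2898 and replicates 2 and 3 to series 3047. Of the 6 peak lists, 5 were tied to a library by name: replicate 1 has a single list, while replicates 2 and 3 were both called with input and with IgG as control. The sixth, an antibody list against input that no label ties to a library, is called the unassigned list. Read depths are unknown, since the lists hold no counts.

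HOXB13, a homeodomain protein expressed in prostate epithelium, regulates genes by binding short AT-rich sequence elements, and acetylation of a lysine is a reversible change made by acetyltransferases. Factors that bind a short element usually give narrow ChIP-seq peaks. Wide blocks of signal are known from super-enhancers, stretches of closely packed regulatory elements, and from broad active promoters. A peak caller joins neighbouring positions that pass its threshold into 1 interval and reports the position of the highest signal as the summit.

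The regions ranged from just over the limit to several times its length. By replicate 2 width, 284 of the 888 regions measured up to 2500 bp and 148 over 4000 bp. In replicate 2 their median width was 2779 bp, with quartiles of 2407 and 3530 bp and a range from 2001 to 16452 bp. The 898 replicate 1 peaks had a median of 2511 bp, with quartiles of 2231 and 3148 bp and a range from 2001 to 14767 bp. Replicate 2 was the wider library at 585 of the 888 regions (65.9%), and the median ratio of the replicate 2 width to that of the widest replicate 1 partner was 1.06. Spearman's rho between the widths in the 2 libraries was 0.55 over 888 regions, which share the 2 libraries and the width rule.

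**Figure D1:**
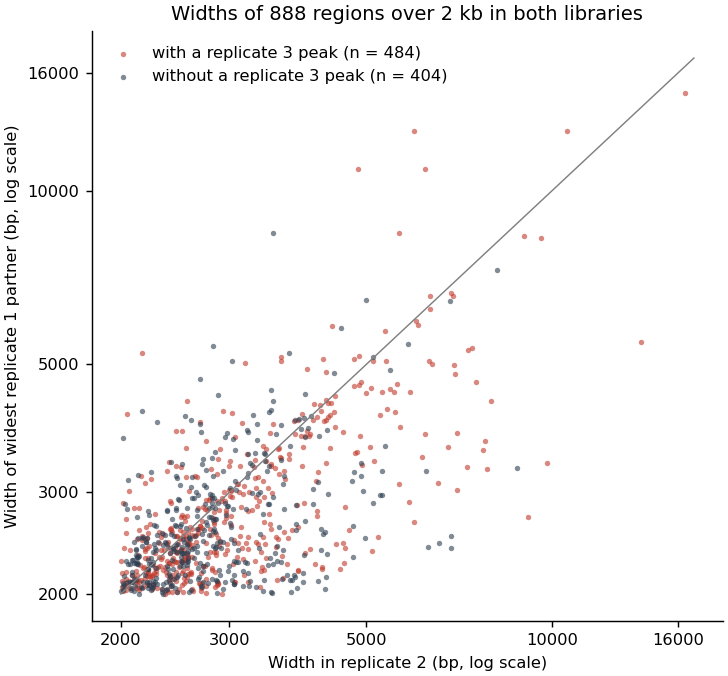
Width of each of the 888 regions in replicate 2 (x axis, bp, log scale) and of its widest replicate 1 partner (y axis, bp, log scale); points are regions, split by whether a replicate 3 peak lies in them, and the line marks equal widths. Points crowd near the limit of 2000 bp, and the widest region measures 16452 bp in replicate 2 and 14767 bp in replicate 1.

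Borders of the intervals lay near each other in the 2 libraries. The starts were a median of 183 bp apart and the ends 164 bp, and the shared length was a median of 84.2% of the combined length (quartiles 69.7% and 91.9%). At 68 regions it was under 50%, and at 14 under 25%. Peaks of replicate 1 of any width together covered a median of 93.6% of a region. The replicate 2 interval reached past its partner at both ends in 329 regions, and the partner reached past the replicate 2 interval at both ends in 100.

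Some wide peaks of 1 library met several wide peaks of the other. Of the 888 regions, 872 met 1 wide replicate 1 peak, 15 met 2 and 1 met 4. The region with 4 lies on chromosome 14 from 100029372 to 100043327, a single interval of 13956 bp in replicate 2. It met separate replicate 1 peaks of 3189, 2743, 3796 and 5477 bp. The first of these, from 100026410 to 100029598, reached only its left edge. In the other direction, 8 wide replicate 1 peaks each overlapped 2 of the regions, in some cases only at an edge. On chromosome 6, such a peak ending at 111199061 met the start of the region from 111199020 to 111201688. On chromosome 22, 1 replicate 1 peak of 12691 bp from 46454289 to 46466979 overlapped replicate 2 intervals of 5982 and 10564 bp, which are 175 bp apart. On chromosome 11, 1 replicate 1 peak of 8450 bp from 65184055 to 65192504 overlapped replicate 2 intervals of 3525 and 5659 bp.

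Every peak of the lists carries a single summit, and neither an interval nor a summit position was repeated in any list. Repeated summits could therefore be seen only as separate peaks of another list inside a region. In the unassigned list, 363 of the 888 regions (40.9%, 95% interval 37.6 to 44.2) held at least 2 peaks, against 7.34% of all replicate 2 peaks and 54.1% (51.6 to 56.5) of the 1654 wide replicate 2 peaks without a wide replicate 1 partner. Neighbouring summits of that list in a region were a median of 1138 bp apart (quartiles 782 and 1714 bp). In replicate 3, 185 regions (20.8%, 18.2 to 23.7) held at least 2 peaks, against 1.23% of all replicate 2 peaks and 7.19% (5.996 to 8.55) of the other wide ones, and neighbouring summits were a median of 702 bp apart. Replicate 1 divided 256 regions (28.8%, 25.9 to 31.9) into at least 2 peaks of any width, against 9.73% of all replicate 2 peaks and 71.0% (68.7 to 73.2) of the other wide ones. The last share follows in part from the rule, which left the 1654 out for having no wide replicate 1 peak. The share with several replicate 3 peaks was thus larger in the 888 regions than in the other wide peaks. With several peaks of the unassigned list it was smaller. The exact intervals did not overlap, but each list is 1 library and its peaks are not replicates, so no test was made. The 2 sets also differ otherwise, since the 888 were kept for a wide peak in a second list. Their median replicate 2 width was 2779 bp against 2330 bp, and their median fold enrichment, defined below, 22.5 against 18.0. Whether these differences account for the shares was not tested. Intervals are exact binomial ones and cover counting error only.

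Summits were spread over the regions and were sparse at their ends. In replicate 2 the summit fell in the middle 50% of the width at 654 of the 888 regions (73.6%, 70.6 to 76.5), against 84.6% over all replicate 2 peaks. The outer 10% at both ends together held 30 summits (3.38%). The median distance of the summit from the middle of the interval was 441 bp. On the replicate 1 side, 621 of 898 summits (69.2%, 66.0 to 72.2) fell in the middle 50% of their own interval and 77 (8.57%) in the outer 10% at the ends.

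**Figure D2:**
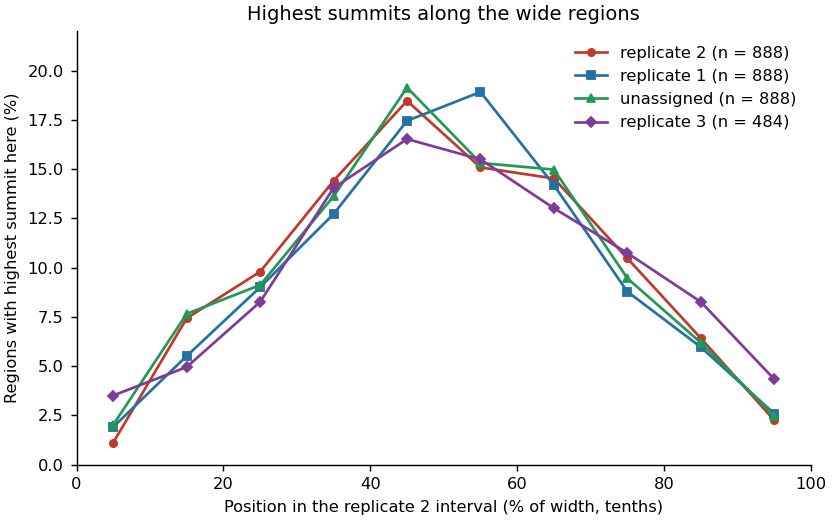
Share of regions whose highest summit falls in each of 10 equal parts of the replicate 2 interval (x axis, % of width; y axis, % of regions), for the summits of replicate 2, replicate 1, the unassigned list and replicate 3. All 4 curves have their highest value, between 16.5% and 19.1%, in the fifth or the sixth part and their lowest values in the outer parts.

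Here and below, the replicate 1 summit and value of a region are those of its wide replicate 1 peak with the highest fold enrichment. Narrower replicate 1 peaks were left out, also where they were higher. On chromosome 9 from 100744460 to 100748337, such a peak of 928 bp had its summit at 100745204, near that of replicate 2 at 100745142. Summits so taken lay within 100 bp in replicates 1 and 2 at 431 of the 888 regions (48.5%, 45.2 to 51.9). Another 115 were over 100 and up to 250 bp apart, 102 over 250 and up to 500 bp, 149 over 500 and up to 1000 bp, and 91 over 1000 bp. The median distance was 111 bp (quartiles 40 and 529 bp). Both summits were on the same side of the middle of the region at 672 regions (75.7%). Counting any replicate 1 summit, 462 regions (52.0%, 48.7 to 55.4) had one within 100 bp, against 36.4% of all replicate 2 summits, 62.5% (60.1 to 64.8) of the 1654 wide replicate 2 peaks without a wide replicate 1 partner and 57.8% (57.2 to 58.4) of narrower replicate 2 peaks shared with replicate 1.

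The 240 regions with summits over 500 bp apart were set against the other lists. The highest summit of the unassigned list was nearer to that of replicate 2 in 202 of these 240 (84.2%, 78.9 to 88.5). For replicate 3, which had a peak in 119 of them, the highest summit was nearer to replicate 2 in 63 (52.9%, 43.6 to 62.2). The list of replicate 2 against IgG, made from the same precipitation, was nearer to replicate 2 in 145 of 176 (82.4%, 75.9 to 87.7).

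The authors' fold enrichment, the ratio of the signal at a summit to the local background of the control, was high at these regions in both lists that chose them. In replicate 2 its median was 22.5 (quartiles 16.8 and 30.7, range 5.97 to 74.8), beside 6.50 over all replicate 2 peaks. The 1654 other wide replicate 2 peaks were also high, with a median of 18.0 (quartiles 12.8 and 25.5). In replicate 1 the 898 peaks had a median of 11.5 (quartiles 8.46 and 15.0, range 2.79 to 30.2), beside 4.67 over all replicate 1 peaks. No label names the control used for replicate 1, so the 2 sets of values may refer to different backgrounds. At 852 of 888 regions (95.9%) the replicate 2 value was higher than that of the wide replicate 1 peak, with a median ratio of 2.04. Narrower replicate 1 peaks did not enter these ratios or the correlation between the 2 lists. On chromosome 9 from 100744460 such a peak had 23.8, against 21.9 in the wide one. The lowest ratio, 0.385, was on chromosome 16 from 85640696 to 85643156, with 7.74 in replicate 2 and 20.1 in replicate 1, where the 2 intervals shared 522 bp and their summits lay 4381 bp apart. The highest, 12.2, was on chromosome 6 from 43876294 to 43880133, with 46.4 in replicate 2 and 3.79 in replicate 1, where they shared 28 bp and the summits lay 2690 bp apart. Spearman's rho of fold enrichment was 0.54 between the 2 lists, and that of width with fold enrichment within replicate 2 was 0.23, both over the 888 regions.

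The rule did not use the unassigned list, and whether it shares a library with another list was not tested. At least 1 of its peaks lay in all 888 regions (95% interval 99.6 to 100), against 65.1% of all replicate 2 peaks, but also in all 1654 other wide peaks and in 84.4% of the narrower shared ones. Its peaks covered a median of 92.1% of a region. At 612 regions (68.9%, 65.8 to 72.0) at least 1 of its peaks was itself over 2000 bp, against 2.44% of all replicate 2 peaks and 26.4% (24.3 to 28.6) of the 1654 wide replicate 2 peaks without a wide replicate 1 partner. These 612 were reached by 629 of the 1092 wide peaks of the unassigned list (57.6%). Its highest summit was a median of 33 bp from that of replicate 2 and 98.5 bp from that of replicate 1. At least 1 of its summits was within 100 bp of the replicate 2 summit at 750 regions (84.5%, 81.9 to 86.8), against 55.8% of all replicate 2 summits and 87.0% (85.3 to 88.6) of the other wide ones. Spearman's rho of its fold enrichment was 0.95 with replicate 2 and 0.55 with replicate 1, over the same 888 regions.

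Replicate 3, whose widest peak measures 1509 bp, held no peak over the limit, so every match to it was a peak shorter than the region. In regions that held any, its widest peak had a median of 330 bp, and its peaks covered a median of 12.9%. Its highest summit there was a median of 391 bp from that of replicate 2. At least 1 replicate 3 peak lay in 484 of the 888 regions (54.5%, 51.2 to 57.8), against 10.5% of all replicate 2 peaks. The share was 36.0% (33.7 to 38.4) for the 1654 wide replicate 2 peaks without a wide replicate 1 partner and 13.6% (13.2 to 14.03) for the 25898 narrower peaks shared with replicate 1. Counting replicate 3 peaks with a −log10 q of 5 or more, it was 124 of 888 (13.96%, 11.8 to 16.4), against 2.1% of all replicate 2 peaks and 10.2% (8.74 to 11.7) of the 1654. There was 1 library per list, so no test between libraries was made.

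A longer interval can meet more peaks, and presence was therefore also taken per length and at the summit. The regions held 266 replicate 3 summits per Mb, against 175 per Mb in the 1654 other wide peaks, 159 per Mb in the narrower shared ones and 138 per Mb over all replicate 2 peaks. The unassigned list had 480.0 summits per Mb in the regions, against 658 in the other wide peaks, 1020 in the narrower shared ones and 862 over all. It had a peak in 100% of the regions, 100% of the other wide peaks and 84.4% of the narrower shared ones. Median replicate 2 widths of these sets were 2779, 2330 and 802 bp, in the same order. With a peak in most intervals of each set, the density of this list depends largely on interval width. No conclusion on the regions is drawn from it. The list against IgG had 386 per Mb in the regions, against 339 in the other wide peaks, 215 in the narrower shared ones and 197 over all. A replicate 3 summit lay within 100 bp of the replicate 2 summit at 166 regions (18.7%, 16.2 to 21.4), against 4.77% of all replicate 2 summits. With replicate 3 peaks of −log10 q of 5 or more, 48 regions had a summit match (5.41%, 4.01 to 7.10), against 1.13% of all replicate 2 summits and 86 of the 1654 other wide peaks (95% interval 4.18 to 6.38). Without that limit the share for the other wide peaks was 14.7% (13.0 to 16.5) and for the narrower shared ones 6.57% (6.27 to 6.88). By width, a replicate 3 peak was present in 142 of the 284 regions up to 2500 bp, 52.2% of 249 up to 3000 bp, 51.7% of 207 up to 4000 bp and 70.9% of the 148 longer ones. The share with a summit match was 15.85%, 21.3%, 19.3% and 18.9% in the same order. These width classes were chosen after seeing the data.

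**Figure D3:**
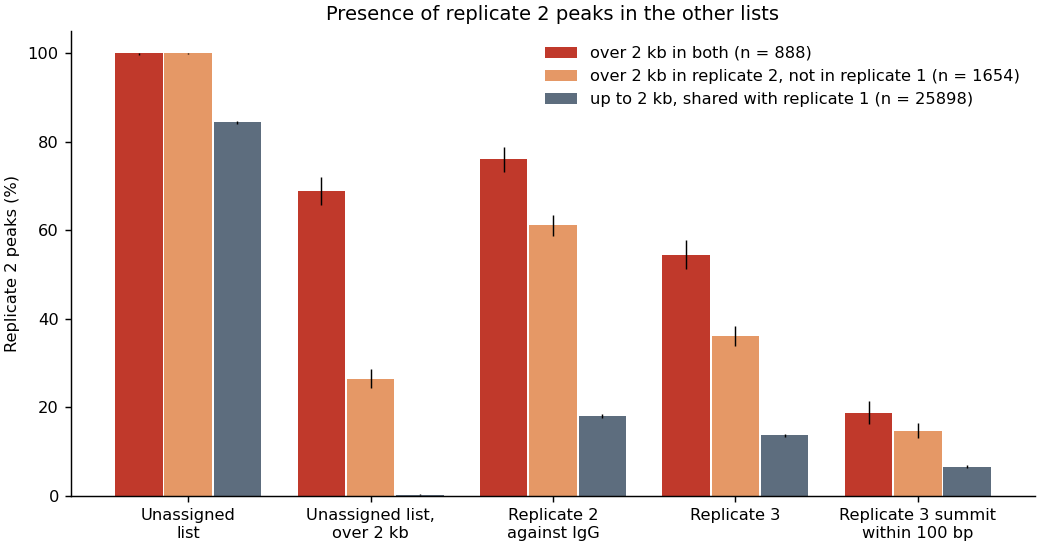
Share of replicate 2 peaks (y axis, %) present in the unassigned list, in the unassigned list as a peak over 2 kb, in replicate 2 against IgG and in replicate 3, and with a replicate 3 summit within 100 bp. Bars are the 888 regions, the 1654 other wide peaks and the 25898 narrower peaks shared with replicate 1, with exact 95% binomial intervals; in replicate 3 they stand at 54.5%, 36.0% and 13.6%.

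The summit match to replicate 3 was also taken within classes of replicate 2 fold enrichment, a division chosen after seeing the data. At a fold enrichment from 20 to 30 it was 20.3% for 310 regions (95% interval 16.0 to 25.2), 16.5% for 424 other wide peaks (13.1 to 20.4) and 23.5% for 1718 narrower shared peaks (21.5 to 25.5). From 30 to 40 the shares were 27.7% (20.4 to 36.0), 33.1% (25.9 to 41.0) and 32.5% (27.9 to 37.3), in the same order. At 40 and over they were 37.9% (28.1 to 48.4), 46.6% (36.7 to 56.7) and 47.3% (39.0 to 55.7). In each of the 5 classes the interval of the 888 regions overlapped both other intervals, and at 30 and over their share was the lowest of the 3. Over all fold enrichments the shares had been 18.7% for the regions, 14.7% for other wide peaks and 6.57% for narrower shared ones.

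**Figure D4:**
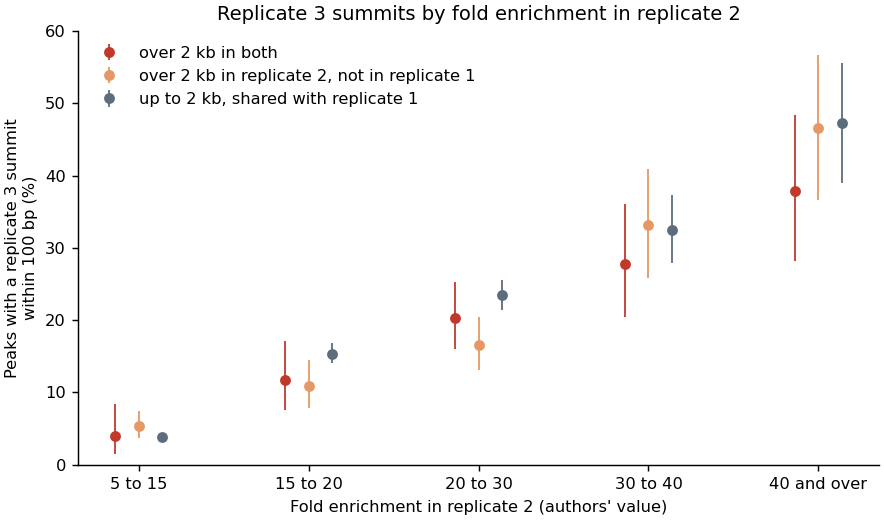
Share of replicate 2 peaks with a replicate 3 summit within 100 bp (y axis, %) in 5 classes of the authors' replicate 2 fold enrichment (x axis), for the 888 regions, the 1654 other wide peaks and the narrower shared peaks; points are shares with exact 95% binomial intervals. At 40 and over the shares are 37.9%, 46.6% and 47.3%, and the intervals overlap.

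Within its own list, replicate 3 had higher median widths and fold enrichments inside the regions than elsewhere. The 763 such peaks, 4.18% of the list, had a median fold enrichment of 4.99, against 4.40 for the 17469 others, and a median width of 283 bp, against 233 bp. Of the 763, 141 had a −log10 q of 5 or more (18.5%, 15.8 to 21.4), against 5.75% (5.41 to 6.10) outside. Of all 18232 replicate 3 summits, 5265 lay in any replicate 2 peak, so the peaks outside are mostly in none. The contrast was not particular to the regions. Of the other wide peaks, 596 held a replicate 3 peak and 168 held one of −log10 q of 5 or more, against 484 and 124 of the regions. The 484 regions with a replicate 3 peak had a median replicate 2 fold enrichment of 26.2, and the 404 without one 18.8. In replicate 1 these medians were 13.3 and 9.24. Median widths differed less, with 2849 bp for regions with a replicate 3 peak and 2720 bp for those without.

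The study had both input and IgG libraries as controls, and replicate 2 was called against each. A peak against IgG lay in 676 of the 888 regions (76.1%, 73.2 to 78.9), against 14% of all replicate 2 peaks and 61.2% (58.8 to 63.5) of the other wide ones. With IgG-controlled peaks of a q of 0.05 or less this was 284 regions (32.0%, 28.9 to 35.2), against 3.33% of all replicate 2 peaks and 22.1% (20.1 to 24.1) of the other wide ones. Of the 7506 peaks of this list, 21.5% had a q of 0.05 or less. Where no q is given, here and below, a call against IgG is a peak of any q. This list comes from the precipitation that chose the regions, so it is no independent library. At 591 regions (66.6%, 63.3 to 69.7) it had a summit within 100 bp of the replicate 2 summit against input, against 13.3% of all replicate 2 summits, and its peaks covered a median of 32.2% of a region that held any. Its 22 peaks over 2000 bp all lay in these regions, 22 of the 888 (2.48%, 1.56 to 3.73), against 0.0487% of all replicate 2 peaks. The widest of them, 3536 bp, is in the region on chromosome 3 from 176911045 to 176915410, where the authors' value was 8.49 over IgG and 58.3 over input. The list of replicate 3 against IgG, a single peak, met none of the regions (0 of 888, 95% interval 0 to 0.415%, background 0%).

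Regions were found in the lists in several combinations. Of the 888, 398 (44.8%) were in replicate 3, in replicate 2 against IgG and in the unassigned list, against 26.1% of the other wide peaks and 5.2% of all replicate 2 peaks. Another 278 (31.3%) were called against IgG without a replicate 3 peak, against 35.1% of the other wide peaks and 8.82% of all. A replicate 3 peak without a call against IgG was found in 86 (9.68%), against 9.98% of the other wide peaks and 5.26% of all. The 126 with neither made up 14.2%, against 28.8% of the other wide peaks and 80.7% of all. For the regions found in a single one of replicate 3 and the IgG-controlled list, the exact intervals of the 888 and of the other wide peaks overlapped.

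The 10 regions with the greatest width in the narrower of the 2 libraries measured 6344 to 16452 bp in replicate 2 and 6250 to 14767 bp in replicate 1. The first lies on chromosome 9 from 137246314 to 137262765. Replicate 2 had a fold enrichment of 42.6 here and replicate 1 of 20.8, with summits 66 bp apart in the right part. The unassigned list divided it into peaks of 2223, 7716 and 5711 bp, the longest of which had the highest value of 24.3 there, at another place than replicates 1 and 2. Replicate 3 had 5 peaks in it, of 307 to 661 bp and with fold enrichments from 4.00 to 5.28. One of these, from 137259109 to 137259633, covers the summits of replicates 1 and 2.

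The second lies on chromosome 22 from 46456428 to 46466991. Replicate 2 had 37.9 there and replicate 1 had 23.1. The 2 libraries placed the highest summit 8227 bp apart, at 46466177 in replicate 2 and at 46457950 in replicate 1. The unassigned list had summits near both, at 46466123 with 28.1 and at 46457971 with 23.6. Replicate 3 had 6 peaks here, with 10.2 in the peak from 46457294 to 46458085, which covers the replicate 1 summit, and 5.27 in that from 46466004 to 46466194, which covers the replicate 2 summit.

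On chromosome 3 the region from 128204037 to 128213057 measured 9021 bp in replicate 2 and 8362 bp in replicate 1. Its summits lay 7 bp apart, at 128207157 in replicate 2 and 128207164 in replicate 1, with fold enrichments of 42.9 and 18.8. The unassigned list had its summit at 128207144 with 29.1, and a replicate 3 peak of 336 bp with 5.88 had its summit at 128207078. The IgG-controlled list had a peak of 3130 bp in this region with 6.55. All 5 lists with more than 1 peak thus had a peak here, and 4 of the summits named lay within 100 bp.

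The region on chromosome 19 from 13116395 to 13126007 was 1 interval of 9613 bp in replicate 2 and of 9250 bp in the unassigned list, and replicate 1 divided it into peaks of 2667 and 8275 bp. Replicate 2 had its summit in the left part with 29.5, and replicate 1 had values of 15.4 in the left peak and 16.2 in the right peak. Replicate 3 had 5 peaks in it, with fold enrichments from 3.00 to 6.26. On chromosome 11 the region from 118789264 to 118797426 had fold enrichments of 28.4 in replicate 2, 17.7 in replicate 1 and 19.7 in the unassigned list. It held no peak of replicate 3 and none against IgG. Of the remaining 5 regions, 4 held replicate 3 peaks, and the one on chromosome 12 from 116191970 to 116198800 held none. These 5 had fold enrichments of 20.7 to 72.2 in replicate 2 and of 9.86 to 21.96 in replicate 1.

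**Figure D5:**
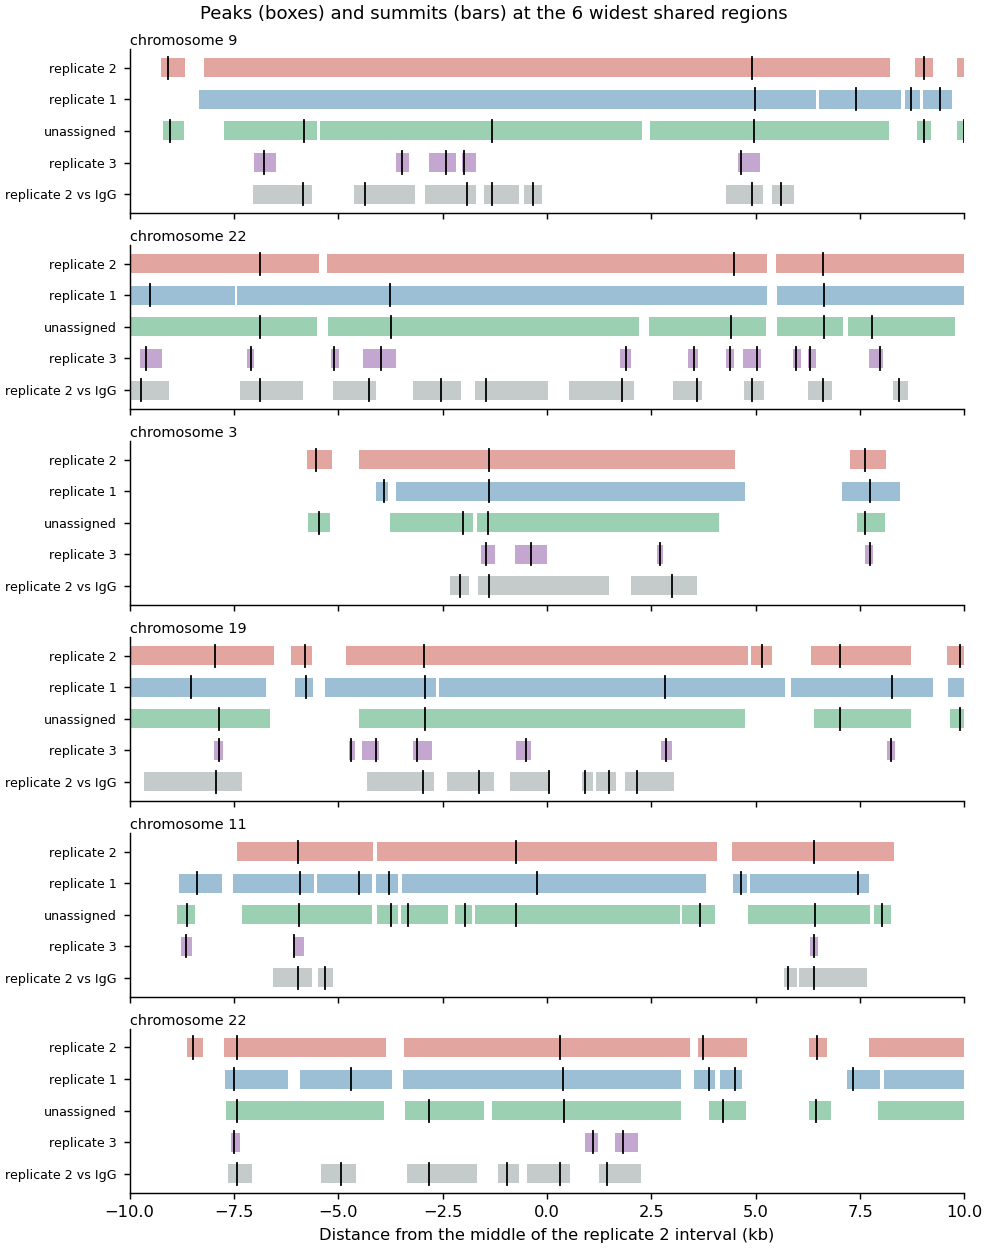
Peaks (boxes) and their summits (black bars) of 5 lists at the 6 regions with the greatest width in the narrower of replicates 2 and 1, by distance from the middle of the replicate 2 interval (x axis, kb). Replicate 2 has 1 interval across each region, while replicate 3 has from 0 to 6 short peaks inside it.

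The 10 regions with the highest replicate 3 fold enrichment were shorter, from 2142 to 5648 bp in replicate 2. Replicate 3 values ran from 11.3 to 15.0. The first, on chromosome 12 from 125398530 to 125404177, had 71.2 in replicate 2, 17.7 in replicate 1, 48.8 in the unassigned list and 15.0 in replicate 3. The next, on chromosome 12 from 112035368 to 112038385, had 20.6 in replicate 2, 27.6 in replicate 1, 22.2 in the unassigned list and 13.1 in replicate 3, and was the one of the 10 with a higher value in replicate 1 than in replicate 2. On chromosome 6 the region from 42749408 to 42752172 had 58.5 in replicate 2, 35.5 in the unassigned list, 11.3 in replicate 3 and 30.2 in replicate 1. The last was the highest value of the wide replicate 1 peaks at the 888. The other 7 had 23.02 to 54.6 in replicate 2 and 10.9 to 21.03 in replicate 1. Summits of replicate 2 and of the wide replicate 1 peak were within 100 bp at 4 of the 10. A peak against IgG of any q lay in 9 of the 10, the exception being that on chromosome 6 from 37786229 to 37788874. At the region on chromosome 12 from 112035368 its −log10 q was 0.686.

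The most replicate 3 peaks inside 1 region, 8, were on chromosome 7 from 5463796 to 5470151, an interval of 6356 bp in replicate 2, 6566 bp in replicate 1 and 6328 bp in the unassigned list. The authors' value was 72.2 for replicate 2, 21.96 for replicate 1, 52.5 for the unassigned list and at most 8.61 for replicate 3. The region on chromosome 19 from 1166818 to 1171115 held 6 replicate 3 peaks with values up to 5.01, and that on chromosome 9 from 100744460 to 100748337 held 5 with values up to 6.56. The other 2 of the 5 regions chosen by number are those on chromosomes 22 and 9 described among the widest. In all, 4 regions held 5 replicate 3 peaks, of which the 2 on chromosome 9 named here came first by position. The remaining 2 are that on chromosome 9 from 140061365 to 140069151 and the wide one on chromosome 19 from 13116395.

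Most regions stood apart from each other, within a dense field of other peaks. The nearest other region was a median of 236 kb away (quartiles 31.8 kb and 1.01 Mb), and 140 of the 888 (15.8%, 13.4 to 18.3) had another within 10 kb. Another replicate 2 peak of any width lay within 10 kb of 712 (80.2%, 77.4 to 82.7), against 68.6% of all replicate 2 peaks. Within 500 bp the share was 47.3% (44.0 to 50.6), against 41.9%. Joined within 10 kb, the 140 regions formed 61 runs, of which 50 held 2 regions, 8 held 3, 2 held 4 and 1 held 8.

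The run of 8 occupies 49.9 kb of chromosome 22 from 46431978 to 46481877, and its regions fill 44.0 kb of it. Their fold enrichment lay between 11.8 and 38.0 in replicate 2 and between 4.73 and 23.1 in replicate 1. Replicate 3 had 16 peaks in the run, and 7 of its 8 regions were called against IgG. A run of 4 on chromosome 12 from 81775856 to 81795150 had values from 15.9 to 33.4 in replicate 2 and 9.45 to 13.2 in replicate 1, and held 1 replicate 3 peak. The other run of 4, on chromosome 14 from 38056260 to 38069795, had lower replicate 2 values, from 6.74 to 17.0, and replicate 1 values from 5.52 to 17.4, with 1 replicate 3 peak. In this run the second region from the left had 6.74 in replicate 2 and 17.4 in its replicate 1 partner, whose summit lay 3306 bp away in the next region.

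Chromosome 17 held the most regions, 91, which is 4.23% of its 2149 replicate 2 peaks (95% interval 3.42 to 5.17), against 1.96% over the whole list. By share, chromosome 22 came next with 36 of 1044 peaks (3.45%, 2.43 to 4.74), and by number chromosome 1 with 75 of 4172 (1.80%, 1.42 to 2.25). The lowest shares with any region were those of chromosome X with 11 of 1356 (0.811%, 0.406 to 1.45) and chromosome 2 with 29 of 3485 (0.832%, 0.558 to 1.19). Chromosome Y had no region among 13 replicate 2 peaks (95% interval 0 to 24.7%). Per length between the first and last peak of any list, chromosome 17 had 1.12 regions per Mb and chromosome 22 had 1.06, against 0.296 over all chromosomes. The regions fell in 531 windows of 1 Mb, of which 350 held a single one. The window with the most was on chromosome 17 from 79000001 to 80000000, with 12 regions among 78 replicate 2 peaks, followed by chromosome 22 from 46000001 to 47000000 with 10 among 56 and chromosome 12 from 81000001 to 82000000 with 9 among 97.

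At the limit of the rule, widths were continuous. Just inside were regions of 2001 bp on chromosome 2 from 74667499 to 74669499 and on chromosome 20 from 2082281 to 2084281, and one of 2009 bp on chromosome 5 from 54828880 to 54830888. Their replicate 2 fold enrichments were 9.95, 16.2 and 28.2. Just outside were replicate 2 peaks of 2000 bp on chromosome 8 from 107071711 to 107073710 and on chromosome 12 from 53886002 to 53888001, and one of 1999 bp on chromosome 2 from 242625554 to 242627552, with 23.7, 24.4 and 21.9. The 3 regions inside had replicate 1 partners of 2280, 2027 and 2172 bp, all over 2000 bp because the rule asks for it. For the 3 peaks outside, chosen by replicate 2 width alone, the widest replicate 1 peak was 867, 1050 and 625 bp. The rule thus fixed much of this difference in advance, and nothing is concluded from it. Of the 1654 wide replicate 2 peaks that were left out, 1645 shared sequence with a replicate 1 peak, the widest of which had a median width of 1313 bp. The rule holds that width to at most 2000 bp.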

How the data were processed

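ChIP-seq peak lists of HOXB13-K13ac libraries were used. The submitters' processing notes name MACS2, Bowtie2, BWA and CASAVA 1.4 and the builds hg19 and GRCh37. What each tool did, the calling threshold and the filter are not stated in the labels. Each peak has a fold enrichment (a ratio to local background), a −log10 p and a −log10 q, all deposited by the authors. The deposited score column equalled 10 times −log10 p, rounded down and limited to 1000, in all lines of the 5 lists tied to a library. Depths are unknown, so intervals cover counting error of peaks alone.

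Lists were tied to libraries by the spelling in the labels. The names of replicates 1 and 3 differ by 1 punctuation mark, and 1 list matched no library. If those lists were exchanged, every value given for replicate 1 would belong to the series 3047 library and every value for replicate 3 to that of series 2898, and the library that helped choose the regions would change likewise; the regions themselves would not. Peaks were read with Python 3.11.15, pandas 2.3.3, NumPy 2.4.6 and SciPy 1.17.1. Peaks were shared at 1 bp or more. Where a region met several peaks of a list, the one with the highest fold enrichment gave its value and summit. For replicate 1 only peaks over 2000 bp were eligible for this. Overlap counts were checked against bedtools 2.31.1, and the code was tested on simulated lists.

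The regions, comparisons and alternatives were chosen with earlier results of these data known. Regions named are the 10 widest in the narrower library, the 10 highest and the 5 most often hit in replicate 3, and 3 on each side of the limit, with others named after their values were seen. No test was made, because each list is 1 library. Genes, sequences and motifs on hg19 were not analysed here.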

Additional observations from a re-analysis of the deposited data

How the results depend on the processing

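Counts and shares depended on the width limit and on what counts as present. At a limit of 1500 bp there were 2367 regions, with 49.2% in replicate 3, 66.8% called against IgG and 21.8% within 10 kb of another. At 3000 bp there were 199, with 67.8%, 83.9% and 11.6%, and 44.2% had summits of replicates 1 and 2 within 100 bp. With a shared length of at least 0.5 of both widths, replicate 3 matched 0% (its peaks are too short for such regions), the unassigned list 89.2% and IgG 5.41%, and 12.7% lay within 10 kb. At a −log10 q of at least 5, replicate 3 matched 13.96% and IgG 5.52%. By summits within 100 bp the shares were 18.7% in replicate 3, 84.5% in the unassigned list and 66.6% against IgG, and 32.0% were called against IgG at a q of 0.05 or less. Summits of replicates 1 and 2 agreed at 61.5% within 250 bp and at 52.0% for the nearest pair, and those of replicate 2 and the unassigned list at 80.5% when that list took the place of replicate 1. Within 50 kb, 31.0% had a neighbour.

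Without replicate 1 all 2542 wide replicate 2 peaks would enter, and without replicate 2 all 1183 of replicate 1. Across these 2 settings the share in replicate 3 was 42.5% to 50.2%, in the unassigned list 99.7% to 100%, and within 10 kb 19.1% to 20.4%. Without replicate 1, 66.4% were called against IgG. Summit agreement has no value without either library, nor has the IgG share without replicate 2. No paired analysis was possible because no IgG or input library has a list of its own here. Unknown depth limits all counts: a peak missing from a list may lie under its threshold.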

Other observations

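Wide replicate 1 peaks outside the 888 regions were set against the replicate 2 list. Of the 285 wide replicate 1 peaks without a wide replicate 2 partner, 284 shared sequence with a replicate 2 peak, the widest of which had a median width of 1600 bp. The 285 had a median replicate 1 fold enrichment of 10.05, against 11.5 for the 898 wide replicate 1 peaks at the regions.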
